A study of Mus musculus with 6 samples.

Results

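The 9 genes described here are 7 receptors for extracellular nucleotides apart from P2Y14 (P2ry1, P2ry2, P2ry4, P2ry6, P2rx4, P2rx5 and P2rx7) and a pair of genes through which cells release ATP (Panx1 and Slc17a9). They were chosen by name from the 37583 genes of the authors' RPKM table, and all 9 were found there and matched to the count data by gene identifier. RNA was sequenced from EGFP-positive cells sorted in 2 passes from the renal medulla of B1 VATPase EGFP mice aged 12 weeks, whose EGFP marks intercalated cells, which make the B1 subunit of the V-ATPase proton pump. In 3 samples the cells came from mice 2 h after a sham operation, and in 3 samples from mice 2 h after renal ischemia-reperfusion injury (IRI), in which blood flow to the kidney is stopped and then restored. All 6 samples carry the same transgene, and each pooled 4 kidneys of 2 mice. Nothing in the labels says that replicates were prepared on different occasions, and p-values therefore cover only the variation among these pools. The genotype entry of the labels also names CX3CR1 as the gene that controls EGFP, and the tissue entry reads epididymis, while the design text describes kidney.

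Extracellular ATP and UTP act on cells as local signals. P2X receptors are ion channels that ATP opens directly and that admit calcium, whereas P2Y receptors are coupled to G proteins, several of them to Gq, phospholipase C and the release of calcium from stores. In the collecting duct, nucleotides released by epithelial cells act on P2 receptors of the same epithelium and reduce the reabsorption of water and sodium, and injured cells release ATP as a danger signal.

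Levels below are CPM values (reads scaled to TMM-adjusted library sizes), which compare 1 gene between samples, or deposited RPKM values, which are also divided by gene length and so compare different genes. Log2 values are fitted fold changes of IRI over sham ± SE, and a gene was called higher or lower at an adjusted p under 0.05 in edgeR's quasi-likelihood test over all 13881 genes that passed the filter on low counts. Libraries held 17421669 to 24245330 reads in genes. Of the genes tested, 24.2% were called higher, 21.2% lower and 45.5% either way. The share of higher among all calls was 53.3%, and it went to 42.0% under upper-quartile scaling and to 35.6% when libraries were scaled by size alone, median shifts in log2 value of -0.122 and -0.201 going with these scalings. The 12 intercalated cell markers were all tested, and their summed level was 21588 to 27626 CPM in sham and 22044 to 26866 CPM in IRI, a sum of which Car2 and Atp6v1g3 hold a large part. Of the 12, 0 were called higher and 3 lower, namely Hmx2 (399 to 51.7 CPM, log2 -2.95 ± 0.37), Insrr (log2 -1.62 ± 0.34) and Atp6v1b1. The 7 principal cell markers summed to 11366 to 12577 CPM in sham and 5511 to 10767 CPM in IRI, a sum of which Aqp2 holds a large part. Of the 6 tested, 0 were called higher and 2 (Aqp3 and Hsd11b2) lower, against 24.2% and 21.2% of all genes tested. The 5 thick ascending limb markers summed to 1263 to 1975 CPM in sham and 885 to 1395 CPM in IRI. All 5 were tested, with 0 called higher and 1 (Kcnj1) lower. Kcnj1, a large part of the sham sum, went from a mean of 625 to 123 CPM, and the other 4 had no call. The part of principal and thick ascending limb cells in the results below was not tested. Of 10 epididymis markers, 7 were below the filter and 3 of these had 0 reads in every library, and Cx3cr1 had 1 read in each group. The other 3 epididymis markers had reads in every library and no call. Their sham and IRI means were 8.68 and 4.79 CPM for Defb2, 1.52 and 1.68 CPM for Spink12, and 1.42 and 1.18 CPM for Cst8.

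P2rx4 and P2ry2 dominated the receptor RNA per length, and P2rx5 and P2ry2 were the members that rose after IRI. In sham, P2rx4 stood at 23.7 ± 0.816 RPKM (SD, n = 3), 7.31-fold above P2ry2 at 3.24 ± 0.334 RPKM, which was in turn 5.56-fold above the next gene. Panx1 (0.582 ± 0.295 RPKM), P2rx5 (0.547 ± 0.110 RPKM) and P2ry1 (0.505 ± 0.305 RPKM) followed, and their samples overlapped, so their order is not settled. P2rx7 (0.112 ± 0.0230 RPKM), Slc17a9 (0.101 ± 0.0216 RPKM) and P2ry6 (0.0463 ± 0.0421 RPKM) came below them, and each overlapped the next. P2ry4 was listed at 0 in all 6 samples. Among all genes above 0 RPKM in sham, the mean of P2rx4 lay at percentile 87.9, that of P2ry2 at 64.5 and that of P2rx5 at 42.9. After IRI, P2rx5 stood ahead of Panx1 with 1.94 ± 0.176 RPKM, and in the order P2rx4, P2ry2, P2rx5, Panx1 and P2ry1 no gene's samples overlapped with those of the next. Its mean then lay at percentile 58.7 and that of P2ry2 at 74.7. In a bulk sample, a change in the RNA per cell and a change in the share of cells that make it cannot be told apart.

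**Figure D1:**
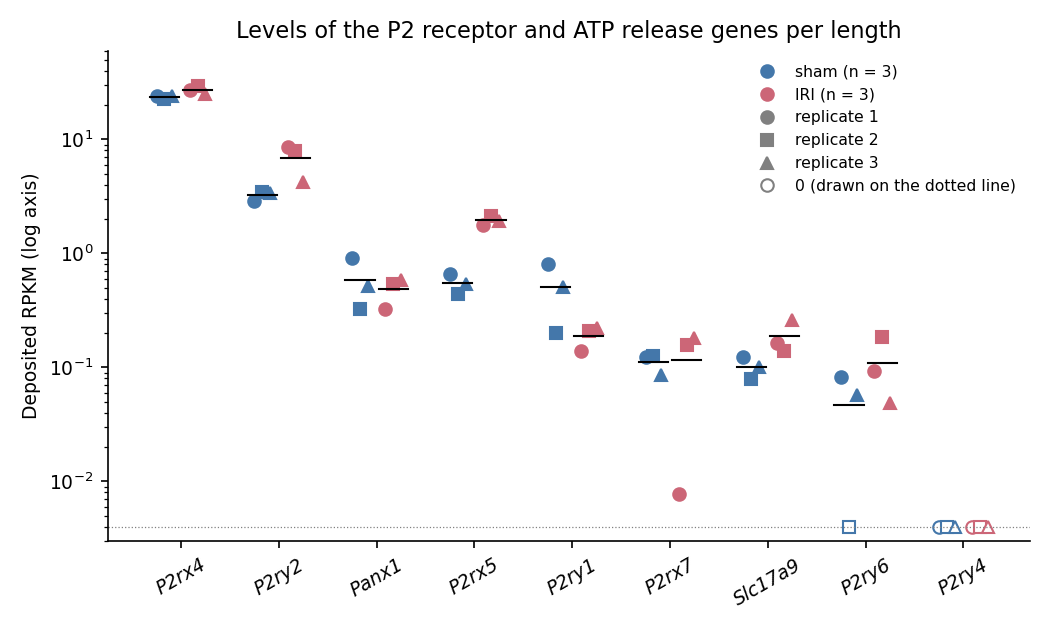
Deposited RPKM of each gene on a log axis, 3 sham samples in blue and 3 IRI samples in red, with replicates by symbol, group means as bars and values of 0 as open symbols on the dotted line. P2rx4 lies highest in both groups, and P2ry4 is at 0 throughout. P2rx5, P2ry2, Slc17a9 and, by a small margin, P2rx4 are higher in every IRI sample than in every sham sample.

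Of the 9 genes, 6 passed the filter on low counts, and 2 of these, P2ry2 and P2rx5, were called higher, against 24.2% of all genes tested. By edgeR's test none was called lower, against 21.2% of all genes tested, and limma-voom called none lower either. DESeq2 called P2ry1 lower, and at an unadjusted p under 0.05 in edgeR's test only P2ry1 was lower. The median log2 value of the 6 was 0.15, beside 0.00038 over all genes tested. In 3 of the 6 every IRI sample lay above every sham sample and in 0 every one lay below, against 29.2% and 27.2% of all genes tested, or 56.4% with groups that did not overlap.

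P2ry2 encodes P2Y2, a Gq-coupled receptor that ATP and UTP activate alike and that in the collecting duct opposes the action of vasopressin. The bases before its start are shown beside those of P2rx4 because P2ry2 is a member that rose and P2rx4 is the most abundant member, which had no call. Each sequence runs 5′ to 3′ over 250 bases before a RefSeq start site, and capitals mark matches to the motifs searched.
P2ry2, GRCm38.p6 chr7:101012054-101012303, minus strand: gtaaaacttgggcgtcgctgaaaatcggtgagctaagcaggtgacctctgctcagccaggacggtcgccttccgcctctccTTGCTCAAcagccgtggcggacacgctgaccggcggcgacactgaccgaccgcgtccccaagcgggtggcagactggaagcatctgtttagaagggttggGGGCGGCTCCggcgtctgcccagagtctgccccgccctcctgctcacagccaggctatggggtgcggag
P2rx4, GRCm38.p6 chr5:122707294-122707543, plus strand: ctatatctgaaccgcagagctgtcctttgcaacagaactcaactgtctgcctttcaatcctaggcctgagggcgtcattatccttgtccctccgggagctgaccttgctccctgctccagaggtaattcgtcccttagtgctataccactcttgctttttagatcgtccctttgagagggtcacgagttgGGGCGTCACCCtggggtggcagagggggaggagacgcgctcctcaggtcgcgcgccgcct
RefSeq promoters were given for 6 of the 9 genes (8 windows, each with 50 more bases after the start), and not for P2ry6, P2rx5 and Slc17a9. The motifs were searched as letters on both strands. They were AP-1 (TGANTCA), the cAMP response element (TGACGTCA), the core of the hypoxia response element (ACGTG), STAT (TTCNNNGAA) and C/EBP (TTGCNNAA). The NF-kB letters, searched the same way, were a loose pattern: G bases at the start, C bases at the end and any base between. Of the 2 P2ry2 windows, the one printed held the C/EBP letters at position -169 and the NF-kB letters at -69 from the start, and the hypoxia core on both strands in the overlapping site cttccaggCACGTgggaccct, whose capitals begin 38 bases after the start. Counted from the other P2ry2 start site, the same letters lay at -224, -124 and, for the hypoxia core, -18 and -17, that is before that start. The P2rx4 window held the NF-kB letters on both strands at -60 and -59. Among the members, the C/EBP letters also lay at -212 in Panx1, which had no call. The NF-kB letters were found in each of the 6 genes with a promoter given. Of 32851 RefSeq windows of 300 bases, 10.8% held the C/EBP letters, 50.8% the NF-kB letters and 19.6% the hypoxia core, so such matches are common. The AP-1 letters, in 7.81% of windows, were found among the members at -249 in P2rx7 and nowhere else, and the STAT and cAMP letters in none of the 8 windows. A match describes letters and not a bound site.

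P2ry2 stood at 8.45, 10.3 and 10.1 CPM in sham replicates 1, 2 and 3 and at 26.0, 23.9 and 13.04 CPM in IRI replicates 1, 2 and 3. IRI replicate 3 was the lowest of its group and still above the highest sham sample. The mean went from 9.59 ± 0.991 to 21.0 ± 6.97 CPM (SD, n = 3 per group), which is 2.19-fold (log2 1.13 ± 0.25, adjusted p = 0.00634, edgeR). The call held in all 16 alternatives, where the adjusted p was at most 0.0333.

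The ADP receptor P2Y1 is encoded by P2ry1. It stood at 3.10, 0.759 and 1.96 CPM in the sham replicates and at 0.539, 0.825 and 0.870 CPM in the IRI replicates. Sham replicate 1 was the highest of all and sham replicate 2 lay among the IRI samples, so the groups overlapped. Its log2 value was -1.38 ± 0.51, with an adjusted p of 0.0534 (edgeR) and hence no call. Without sham replicate 1 the log2 value was -0.87 (adjusted p = 0.209, edgeR), and without sham replicate 2 it was -1.77 and called lower (adjusted p = 0.0107, edgeR). DESeq2 (adjusted p = 0.0438) and edgeR scaled by the upper quartile, scaled by library size alone or run with no filter on low counts (adjusted p = 0.0262 to 0.0386) also called it lower, whereas edgeR with DESeq2 size factors did not (adjusted p = 0.0518). Among markers of endothelium, a cell type known to make P2Y1, sham replicate 1 held 0 reads of Pecam1, Cdh5, Kdr, Flt1 and Emcn, but 121 of Egfl7, 13 of Plvap and 3 of Tek. Egfl7 was at 111 and 89 reads in the other two sham libraries. The summed level of the 8 endothelial markers was 5.38 to 10.9 CPM in sham and 10.4 to 19.1 CPM in IRI. Of the 5 tested, 1 was called higher and 0 lower, against 24.2% and 21.2% of all genes tested. That gene, Flt1, passed the filter through the IRI samples alone, with 10 summed sham reads against 101 after IRI. The part of endothelial cells in the P2ry1 value was not tested. Counting ignored strand. In the GENCODE M21 annotation P2ry1 overlaps the antisense gene Gm37035, which the count files do not list, so their reads cannot be told apart. The same holds for P2ry6 and Gm44545, on the opposite strand, and for P2rx7 and the microRNA gene Mir8115, on the same strand.

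The remaining P2Y members were at the limit of the depth. P2ry6, whose product responds to UDP, was counted with 4, 0 and 2 reads in sham replicates 1, 2 and 3 and with 4, 8 and 2 in the IRI replicates. The ratio of summed reads, scaled to library size, was 2.43 (exact 95% counting interval 0.878 to 7.72), so a difference was not detectable at this depth. P2ry4, for a receptor that responds to UTP, had 0 reads in every library. A count of 0 allows up to 3 reads, that is 0.118 to 0.163 CPM per library.

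P2rx4 encodes P2X4, an ATP-gated channel found in many epithelia and in macrophages. It stood at 82.8, 78.2 and 84.0 CPM in the sham replicates and at 95.9, 104 and 89.0 CPM in the IRI replicates. Every IRI sample lay above every sham sample, but by little: the mean went from 81.7 ± 3.09 to 96.4 ± 7.77 CPM (SD, n = 3 per group), 1.18-fold. The log2 value of 0.24 ± 0.10 did not pass the threshold (adjusted p = 0.0699, edgeR). Scaling by the upper quartile gave 0.12 and scaling by library size alone gave 0.04, and the value passed without IRI replicate 3 (log2 0.30, adjusted p = 0.0459, edgeR).

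Macrophage markers were also measured, since macrophages make P2X4, P2X7 and P2Y6. Of 15 such markers 11 were tested, and 4 (Cd68, Cd14, Lyz2 and Ptprc) were called higher and 0 lower, against 24.2% and 21.2% of all genes tested. Cd68 had the highest fold of the 11, from a mean of 0.903 to 37.7 CPM. None of the 11 was lower at an unadjusted p under 0.05 or by DESeq2 or limma-voom either. The 15 summed to 67.7 to 264 CPM in sham and 206 to 308 CPM in IRI, and without Cd74, Cd68 and Cd14 to 10.4 to 18.03 CPM and 25.2 to 26.4 CPM. Ptprc alone holds a large part of that reduced sum, with 8.18 to 12.0 CPM in sham and 16.2 to 19.2 CPM in IRI. The other 7 tested markers, Csf1r, C1qa, C1qb, C1qc, Tyrobp, Fcer1g and Cd74, had no call. The defining marker Adgre1 was at 2, 0 and 0 reads in the sham replicates and at 0, 5 and 2 in the IRI replicates. The part of such cells in the P2rx4 value was not tested.

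P2rx5, for the ATP-gated channel subunit P2X5, changed the most of the tested members. It stood at 1.65, 1.10 and 1.36 CPM in the sham replicates and at 4.54, 5.50 and 4.93 CPM in the IRI replicates. The groups were far apart and the replicates of each close together, although the values rest on 25 to 42 reads per sham library and 101 to 120 per IRI library. The mean went from 1.37 ± 0.277 to 4.99 ± 0.485 CPM (SD, n = 3 per group), 3.64-fold (log2 1.86 ± 0.26, adjusted p = 0.000531, edgeR). Leaving out any 1 sample gave log2 values of 1.72 to 2.00, and the call held in all 16 alternatives.

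P2rx7 encodes P2X7, the ATP-gated channel that sets off the inflammasome in immune cells, and lies next to P2rx4 in the genome, per the RefSeq gene table (GRCm38.p6). It was counted with 18, 17 and 9 reads in the sham replicates and with 1, 20 and 22 in the IRI replicates. IRI replicate 1 thus stood apart from the other two IRI samples, at 0.0449 CPM against 0.917 and 1.06 CPM. The log2 value was 0.06 ± 0.75 (adjusted p = 0.956, edgeR), and 0.62 (adjusted p = 0.265, edgeR) without IRI replicate 1. P2rx4 in that library, at 2135 reads, lay between the other two IRI samples.

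**Figure D2:**
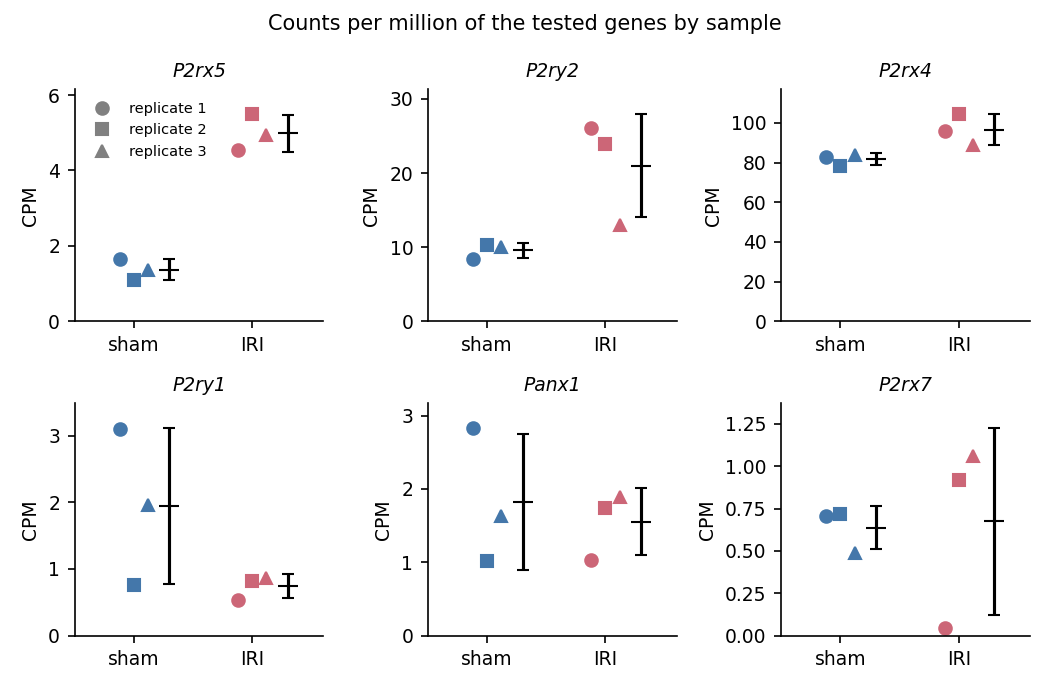
CPM of the 6 tested genes, each on its own linear axis from 0, with replicates by symbol and the mean ± SD of each group of 3 beside them. The groups stand apart for P2rx5, P2ry2 and, by a small margin, P2rx4, while sham replicate 1 is highest for P2ry1 and Panx1 and IRI replicate 1 lowest for P2rx7.

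The ATP release genes had low levels and no call. Panx1 encodes pannexin 1, a plasma membrane channel that lets ATP out of the cell. It stood at 2.83, 1.01 and 1.63 CPM in the sham replicates and at 1.03, 1.74 and 1.88 CPM in the IRI replicates, and the groups overlapped. Its log2 value was -0.24 ± 0.43 (adjusted p = 0.680, edgeR), and 0.21 (adjusted p = 0.717, edgeR) without sham replicate 1, which was the highest sample for P2ry1 too. Slc17a9, for the transporter that loads ATP into secretory vesicles, was counted with 10, 6 and 6 reads in the sham replicates and with 12, 10 and 18 in the IRI replicates and did not pass the filter. In CPM every IRI sample lay above every sham sample (0.253 to 0.393 in sham, 0.458 to 0.870 in IRI), and the ratio of summed reads was 1.90 (exact 95% counting interval 1.10 to 3.35, which leaves out the spread between samples). With no filter on low counts its adjusted p was 0.297 (edgeR).

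**Figure D3:**
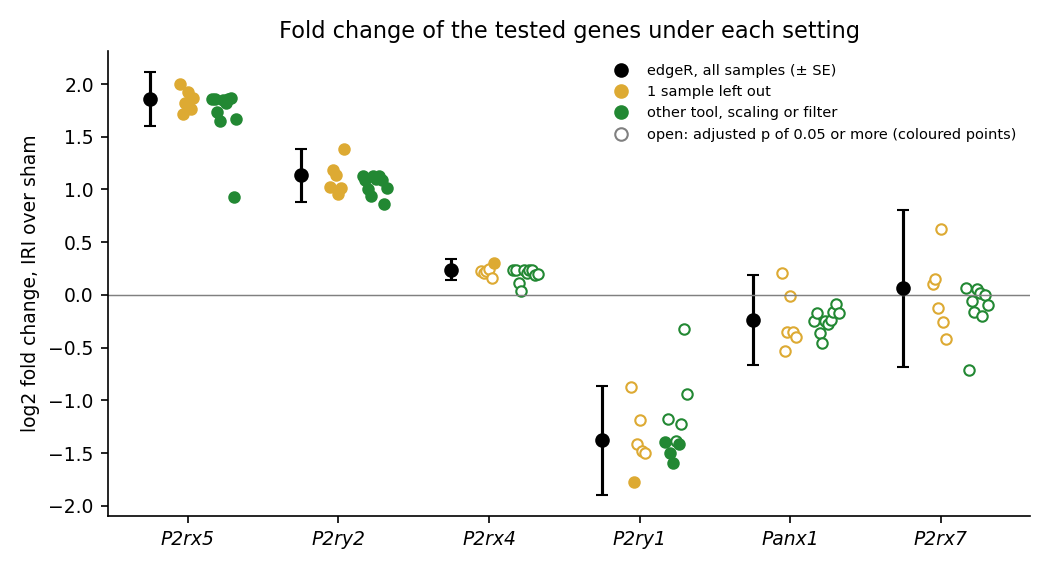
Log2 fold change of the 6 tested genes: black points with SE bars from edgeR on all samples, yellow points with 1 sample left out, green points with another tool, scaling, filter or unit, open where the adjusted p was 0.05 or more. P2rx5 and P2ry2 lie above 0 and stay called throughout, P2ry1 lies below 0 throughout and is called in some settings, and Panx1 and P2rx7 fall on both sides of 0.

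P2rx4 made up 84.1%, 84.3% and 84.1% of the summed RPKM of the 7 receptors in the sham replicates and 71.9%, 73.6% and 79.0% in the IRI replicates. P2ry2 went from 11.5 ± 1.45% to 18.6 ± 4.71% and P2rx5 from 1.94 ± 0.345% to 5.36 ± 0.673% (SD, n = 3 per group). P2ry1 held 2.84%, 0.736% and 1.76% in the sham replicates and 0.363%, 0.523% and 0.695% in the IRI replicates. For each of these 4 shares the groups did not overlap, nor did they for the summed RPKM of the 7 receptors, which went from 28.1 ± 0.999 to 36.5 ± 4.36. The exact permutation test (two-sided) gave p = 0.1 for each of them, which 3 against 3 samples give whenever groups do not overlap and cannot go below, so it adds nothing to that observation. P2rx4 was 36.4 to 51.6 times P2rx5 in RPKM in the sham samples and 13.1 to 15.3 times in the IRI samples. Shares rest on the same reads as the levels above and sum to a fixed total, so they add no independent evidence.

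**Figure D4:**
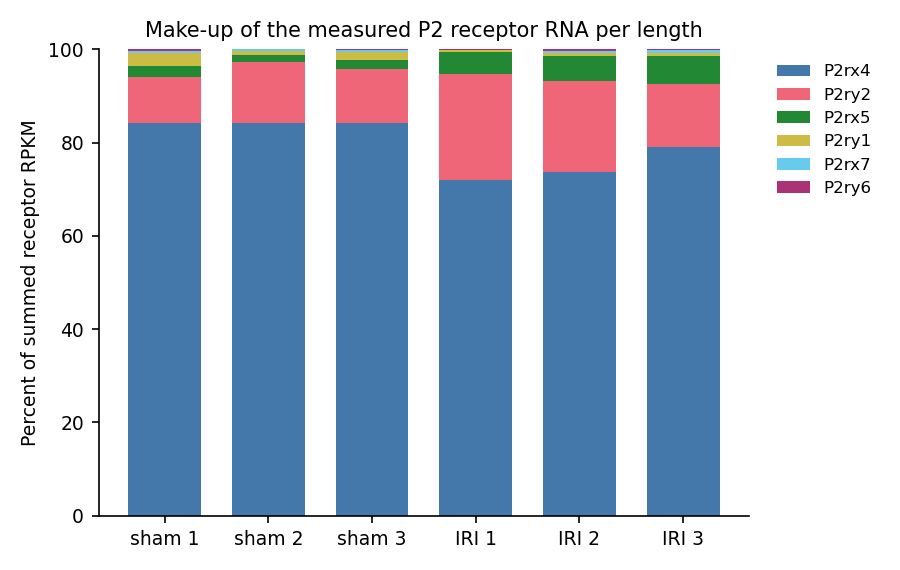
Percent of the summed RPKM of the 7 P2 receptor genes taken by each gene in each sample, as stacked bars from 0 to 100 (P2ry4 is at 0 and not drawn). The P2rx4 part is between 84.1% and 84.3% in the sham samples and between 71.9% and 79.0% in the IRI samples, where the parts of P2ry2 and P2rx5 are larger.

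The genes whose profile over the 6 samples was most like that of P2rx5, the member called higher with the smallest p, were Kcnk1, which encodes a potassium channel, the transcription factor gene Tead1 and the kinase gene Rock2. The root mean square difference between their centred log2 CPM values and those of P2rx5 was 0.0776, 0.101 and 0.103. These were the smallest values among the 8151 genes compared. Those compared were tested genes whose log2 CPM averaged 3 or more, a limit that leaves out genes as low as P2rx5 itself. Genes with clone or predicted-gene names were left out too. The log2 fold changes of Kcnk1, Tead1 and Rock2 were 1.78, 1.81 and 1.72, and Kcnk1 went from a mean of 188 to 649 CPM. Genes picked for a like profile over these samples have a like fold change, so these values add no evidence.

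Other routes of ATP release were measured from a list of 15 genes, of which 10 were tested, 7 called higher and 2 lower, against 24.2% and 21.2% of all genes tested. Their median log2 value was 1.07. Like the lists below, this one was chosen with earlier results of these data known, so its counts are a description and no test. Of the called genes, Slco2a1 and Calhm2 passed the filter only through the group where they were higher. The list holds all 5 subunits of the LRRC8 volume-regulated anion channel, a group singled out here after its values were seen, and all 5 were called higher. Lrrc8e went from 11.0 ± 1.11 to 36.6 ± 8.29 CPM (log2 1.74 ± 0.18, adjusted p = 0.000123, edgeR) and Lrrc8b from 2.88 ± 0.674 to 13.3 ± 3.03 CPM (log2 2.20 ± 0.24, adjusted p = 0.000161, edgeR). The obligatory subunit Lrrc8a rose 2.08-fold to 31.6 ± 2.71 CPM (log2 1.05 ± 0.16, adjusted p = 0.000779, edgeR). The calls of Lrrc8d (log2 0.78 ± 0.22, adjusted p = 0.0233) and Lrrc8c (log2 1.54 ± 0.44, adjusted p = 0.0187) were less firm: that of Lrrc8d was lost with library size alone and on leaving out sham replicate 3, IRI replicate 2 or IRI replicate 3, where the adjusted p reached 0.0821, and that of Lrrc8c on the log2(RPKM + 1) scale and on leaving out sham replicate 2, sham replicate 3 or IRI replicate 3, where the adjusted p reached 0.0713.

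Among the other release genes, connexin 32 (Gjb1) rose from 14.6 ± 1.59 to 30.9 ± 5.35 CPM (log2 1.09 ± 0.16, adjusted p = 0.00076, edgeR). Slco2a1, part of the maxi-anion channel, passed the filter through the IRI samples alone, with 10 summed sham reads against 66 after IRI, a scaled ratio of 6.88 (exact 95% counting interval 3.52 to 15.01, adjusted p = 0.0148, edgeR), and its call was lost without sham replicate 3 (adjusted p = 0.0507). Ank, a membrane protein through which ATP and pyrophosphate leave cells, fell from 37.7 ± 5.25 to 15.2 ± 6.00 CPM (log2 -1.31 ± 0.30, adjusted p = 0.00927, edgeR). Calhm2, of the calcium homeostasis modulator channels, passed the filter through the sham samples alone and was called lower on 46 sham and 14 IRI reads (log2 -1.65 ± 0.43, adjusted p = 0.0121, edgeR), a call lost without sham replicate 3 (adjusted p = 0.0585) and by DESeq2 (adjusted p = 0.0591). Connexin 26 (Gjb2) was counted with 28, 4 and 1 reads in the sham replicates and 28, 15 and 16 in the IRI replicates, with no call (adjusted p = 0.363), and was called higher without sham replicate 1 (log2 2.87, adjusted p = 0.01345).

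Of 15 genes of the signalling behind Gq-coupled P2Y receptors, 14 were tested, 4 (28.6%) called higher and 5 (35.7%) lower, against 24.2% and 21.2% of all genes tested, with a median log2 value of -0.15. Between the alpha subunits, Gnaq rose from 30.8 ± 1.01 to 54.8 ± 0.510 CPM (log2 0.83 ± 0.10, adjusted p = 0.000204, edgeR) and Gna11 fell from 154 ± 8.17 to 90.3 ± 4.12 CPM (log2 -0.77 ± 0.09, adjusted p = 0.000234, edgeR). Among the IP3 receptors, the calcium channels of the stores, Itpr3 rose from 2.79 ± 0.437 to 20.04 ± 3.31 CPM (log2 2.84 ± 0.19, adjusted p = 1.86e-05, edgeR). Itpr2 fell from 324 ± 10.4 to 227 ± 39.1 CPM (log2 -0.52 ± 0.13, adjusted p = 0.0123, edgeR), as did Itpr1 (log2 -0.38 ± 0.12, adjusted p = 0.0332), whose call was lost on leaving out sham replicate 1, sham replicate 3, IRI replicate 1 or IRI replicate 2, with an adjusted p of at most 0.0919. Protein kinase C genes Prkca and Prkcd fell, with log2 values of -1.02 ± 0.15 and -0.76 ± 0.12 (adjusted p = 0.000694 and 0.000994, edgeR). Gna14 was called higher on 5 sham and 41 IRI reads, a ratio of 8.55 (exact 95% counting interval 3.38 to 27.7), having passed the filter through the IRI samples alone, and its call was lost without sham replicate 2 (adjusted p = 0.0576). The call of Plcb3 (log2 0.48 ± 0.17, adjusted p = 0.0463) was lost in 11 of 16 alternatives. Plcb1, Plcb4, Gna15, Prkce and Prkcb had no call, with log2 values of -0.96 to 0.13. Prkcb (log2 -0.96) was called lower without IRI replicate 3 (log2 -1.60, adjusted p = 0.0159, edgeR) and with the replicate block (log2 -1.05, adjusted p = 0.0408, edgeR).

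Of 8 genes of the inflammasome, which P2X7 sets off in immune cells, 5 were tested, 2 called higher and 1 lower, against 24.2% and 21.2% of all genes tested. The sensor Nlrp3 had 0 reads in all 6 libraries and Casp1 was counted with 1, 6 and 17 reads in the sham replicates and 6, 1 and 21 in the IRI replicates. Casp4, for an inflammatory caspase, rose from 0.484 ± 0.0990 to 4.81 ± 1.14 CPM (log2 3.31 ± 0.32, adjusted p = 9.36e-05, edgeR). Il1b, which passed the filter through the IRI samples alone, was counted with 4 summed sham reads against 190 after IRI, a scaled ratio of 49.5 (exact 95% counting interval 19.0 to 184, adjusted p = 0.000246, edgeR). The adaptor Pycard fell from 54.4 ± 7.01 to 30.5 ± 1.74 CPM (log2 -0.83 ± 0.12, adjusted p = 0.000747, edgeR). Il18 and Nek7 had no call, with log2 values of -0.08 and -0.16. Beside these values, 8 neutrophil markers, none of which passed the filter, summed to 0 to 0.118 CPM in sham and 0.0966 to 5.07 CPM in IRI, and their part was not tested.

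A last list held genes of the proton pump and of secretory vesicles, 5 of which were tested, with 3 called lower, against 21.2% of all genes tested. None was called higher by edgeR's test, by DESeq2 or by limma-voom, and 0 were higher at an unadjusted p under 0.05. Vamp8, for a protein of vesicle fusion, and Atp6v0d2, for a proton pump subunit, had no call, with log2 values of -0.06 ± 0.13 and 0.01 ± 0.12. The vesicle GTPase genes Rab3a and Rab27a fell, with log2 values of -2.32 ± 0.11 and -0.93 ± 0.30 (adjusted p = 6.41e-06 and 0.0312, edgeR), and the Rab27a call was lost on leaving out sham replicate 1, sham replicate 3 or IRI replicate 2, where the adjusted p reached 0.104. Atp6v1b1, the proton pump subunit whose cells carry the EGFP, fell from 1619 ± 123 to 1249 ± 168 CPM (log2 -0.37 ± 0.13, adjusted p = 0.0427, edgeR), a call lost on leaving out sham replicate 2, sham replicate 3, IRI replicate 1 or IRI replicate 3, where the adjusted p reached 0.119.

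**Figure D5:**
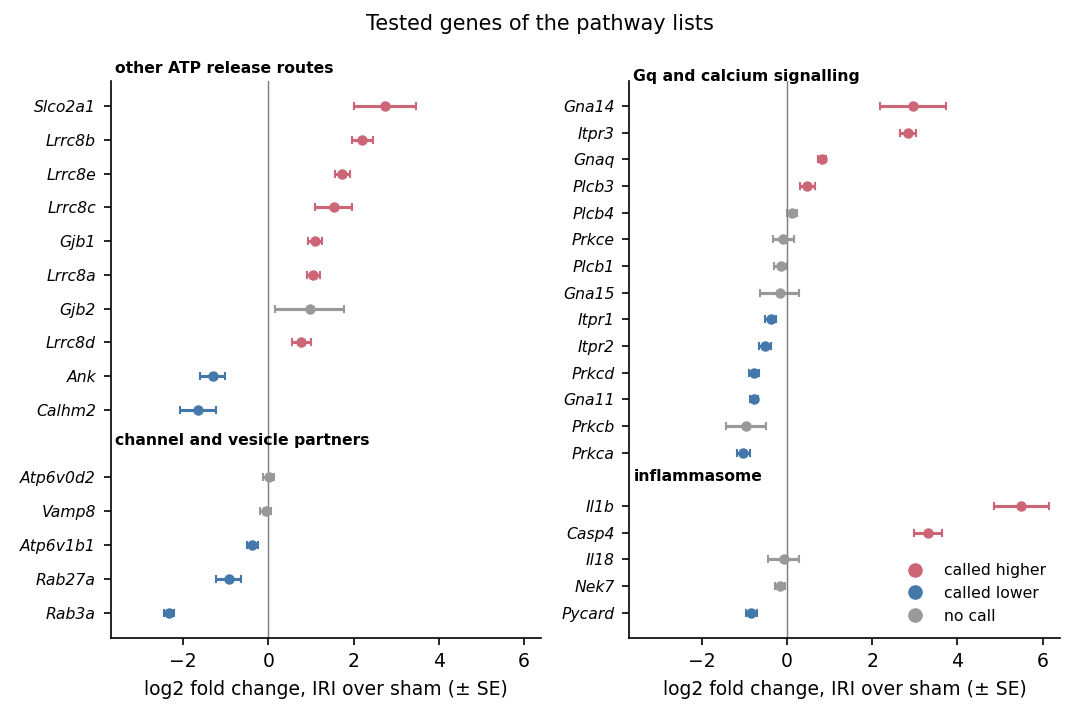
Log2 fold change of IRI over sham ± SE (edgeR) for the tested genes of 4 lists, red where called higher, blue where called lower and grey with no call. The 5 Lrrc8 genes lie to the right of 0, and Itpr3 and Gnaq lie on the opposite side of 0 from Itpr1, Itpr2 and Gna11.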

How the data were processed

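Read counts per gene of 6 libraries (3 sham, 3 IRI), as deposited, are whole numbers with no normalization, and the deposited RPKM values add symbols and gene length in bases, another quantity the authors list. The submitters' processing notes name STAR, HTSeq, edgeR and mm9 (per the labels), with versions and gene models not given in the sources used here. Libraries were made with a SMARTER kit, per the labels' protocols, and counted without strand, per the file names. Genes held 49.1% to 50.7% of the reads recorded, and the remaining entries entered no library size or test. The deposited RPKM equalled reads per length and effective library size, so it is not independent of the counts.

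Counts were tested with edgeR 4.0.16 (R 4.3.3): filterByExpr, TMM, robust quasi-likelihood fit with group as the only term, Benjamini-Hochberg over all genes tested. SEs derive from the F statistic. Counting intervals and the limit of 3 reads for a count of 0 cover counting error only. Alternatives used DESeq2 1.42.0, limma 3.58.1, other scalings, filters and a replicate block, and left out each sample. Members, lists and rules were chosen with earlier results of these data known. All members and all called list genes are named, and the 3 genes most like the called member with the smallest p. 1 listed gene was not matched and is not analysed here, and some genes of the last list are not reported here and enter no count of it. On simulated counts for IRI against sham (13388 genes tested), edgeR called 58 of the 97 genes set to 2-fold, 82 of the 95 set to 4-fold and 8 of 13196 left unchanged. Few genes were changed in that simulation, whereas 45.5% of the genes tested were called in the data. These recovery counts therefore need not hold for the data.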

Additional observations from a re-analysis of the deposited data

How the results depend on the processing

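P2ry2 and P2rx5 kept their direction and call in all 16 alternatives, with log2 values of 0.86 to 1.39 and 0.93 to 2.00. The lowest P2rx5 value came from the log2(RPKM + 1) scale, which understates the change of low genes. P2ry1, with no call as tested, was called lower by DESeq2 (log2 -1.39, adjusted p = 0.0438), with upper-quartile scaling (-1.50), with library size alone (-1.60) and with no filter on low counts (-1.42), so that 1 member was lower in each of these. Leaving out 1 sample gave log2 values of -1.77 to -0.87 for P2ry1 and 0.16 to 0.30 for P2rx4, and 0 to 1 members called lower. The cause of these shifts was not tested. The pathway lists had 13 genes higher and 11 lower as tested, and 7 to 11 lower with 1 sample left out. Of 1249 comparisons of other list and marker genes with an alternative, 33 gained and 42 lost a call and none reversed a called value.

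With the replicate block, P2ry2 stood at 1.09 (adjusted p = 0.0118) and P2ry1 at -1.22 (adjusted p = 0.1005), and 2 members were higher and 0 lower. Same-numbered samples deviated together with correlations of 0.182, 0.0952 and 0.178 across genes, and every sample correlated best with its own number, which is a hint from the data and not from the design. At this depth P2ry4, P2ry6 and Slc17a9 could not be tested with the filter, and P2rx7 rests on 1 to 22 reads per library.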

Other observations

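The 7 other P2 receptor genes were all below the filter on low counts. P2rx1, P2rx2, P2rx3, P2rx6, P2ry12 and P2ry13 had at most 10 reads in any library. P2rx1 was counted with 0, 1 and 2 reads in the sham replicates and 3, 4 and 5 in the IRI replicates, and P2rx3 with 8, 4 and 2 in sham and 0, 3 and 1 in IRI. P2ry10, known from lymphocytes, was counted with 0, 4 and 7 reads in the sham replicates and 3, 5 and 42 in the IRI replicates, so that IRI replicate 3 held most of them.

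Among the release genes that were not tested, connexin 43 (Gja1) was counted with 0, 1 and 1 reads in the sham replicates and 22, 2 and 15 in the IRI replicates. Connexin 30 (Gjb6), known as a route of ATP release in the collecting duct, had 8 reads in IRI replicate 3 and 0 in the other 5 libraries. Panx2 had 0 to 4 reads per library, and Panx3 and Calhm1 had 0 in all 6.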
